A study of Mus musculus with 127 samples.

Results

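The comparison described here asks whether RGFP109, which blocks the class I enzymes HDAC1 and HDAC3, shifted transcripts differently in neurons with a long and with a short polyglutamine tract. It is the drug effect in 97Q neurons minus the drug effect in 25Q neurons, computed for every gene, and is called the interaction below. The neurons were taken by sample title, 104 of the 127 cells of the series: 29 with 25Q and vehicle, 23 with 25Q and RGFP109, 26 with 97Q and vehicle and 26 with 97Q and RGFP109. Counts of the neurons of a group were summed within batches 1, 2 and 3, which gave 12 sums.

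All 4 groups were striatal neurons from newborn wild-type C57BL/6 mice, grown on small islands of cortical astrocytes. Every neuron carried a lentivirus that makes a GFP fusion of the first exon of human HTT, with 25 glutamines (25Q) or 97 (97Q), on top of its own mouse Htt. The promoter of the construct is not given in the sources used here. RGFP109 was given at 100 nM on days 6, 9 and 12 in vitro, and vehicle neurons received DMSO on the same days. At day 15 each neuron was recorded electrically and its content was then drawn into the pipette for RNA sequencing, a procedure called Patch-seq. Animals and cultures are not named in the labels, so the batch is the only replicate above the cell, and p-values measure only the spread between these batches.

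As background, huntingtin with an expanded glutamine tract causes Huntington's disease, in which striatal projection neurons are lost early. These neurons make GABA with the enzymes encoded by Gad1 and Gad2. Histone deacetylases remove acetyl groups from histone tails, and their inhibitors raise acetylation, which generally favours transcription. An interaction above 0 means that RGFP109 moved a transcript further up, or less far down, in 97Q than in 25Q neurons.

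The neurons had 999700 to 8842811 counts each, and a sum held 3 to 15 neurons and 8665881 to 76217208 counts. Batch 2 was the thinnest, with 3 or 4 neurons in each sum. The neuronal transcript Snap25 had a count in 104 of 104 neurons, and Gad1 and Gad2 in 104 of 104, whereas the glutamatergic marker Slc17a7 had one in 10. Such a count does not by itself mark a neuron, since Snap25, Gad1 and Gad2 had one in 9, 10 and 9 of the 14 astrocytes. The levels differed. The median of Snap25 was 2008 CPM (counts scaled to the same library total) over the neurons and 0.32 CPM in the astrocytes. Group medians were 495 to 2055 CPM for Gad1 and 559 to 1280 CPM for Gad2, against 0.19 and 0.13 CPM in the astrocytes. The astrocyte marker list summed to a median of 1665 CPM in 25Q vehicle, 2062 in 25Q RGFP109, 1494 in 97Q vehicle and 1385 in 97Q RGFP109 neurons, against 29327 in the 14 astrocytes. Single neurons ran from 203 to 14309 CPM for that list, and 7 of 104 neurons had at least 25% of the astrocyte median, 3 of them in 97Q RGFP109. Cell 9 of 97Q RGFP109 stood apart from its label: its pan-neuronal marker list summed to 1284 CPM, the lowest of the 104 and within the 338.7 to 2878 CPM of the astrocytes, against 3218 CPM in the next lowest. It had 13475 CPM of the microglia marker list, most of it the protease transcript Ctss (12220 CPM). The cell gave 34.5% of the counts of the batch 2 sum of 97Q RGFP109, which held 4 cells. It was kept in the values below. A fit without it, added after the data had been seen, called 0 genes and left 364 at an unadjusted p of 0.05.

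No gene had an interaction that passed the test. On the 12 sums, with batch as a term, edgeR called 0 of 15091 genes (0%) at a Benjamini-Hochberg adjusted p of 0.05, and the smallest adjusted p was 0.998. At an unadjusted p of 0.05 there were 393 genes, 239 above 0 and 154 below. As a share of the 15091 genes tested this is less than the cutoff of 0.05 itself, so the 393 are not an excess. DESeq2 on the same sums called 70 genes, 47 of them with a count in under 50% of neurons, and limma-voom called 0. The text below keeps to the edgeR values and uses no verb of change for a gene. The median standard error (SE) of the interaction was 1.46 on the log2 scale, so that for a typical gene an interaction of several-fold lay within the error, and the missing calls do not show that RGFP109 acted alike at both lengths. The interaction was above 0 in 7305 genes and below 0 in 7786, with a median of -0.04.

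The batches seldom gave a gene the same interaction. It had 1 sign in all 3 batches in 3966 genes (26.3%). Across the 15091 genes, Pearson's r of the interaction between batches was 0.094 for batches 1 and 2, 0.039 for batches 1 and 3 and -0.015 for batches 2 and 3. The median size of the interaction, without its sign, was 0.744 in batch 1, 1.610 in batch 2 and 0.737 in batch 3 on the log2(CPM + 1) scale. Across the genes, r between the effect of RGFP109 at 97Q and its effect at 25Q, which share no sum but share the batches, was -0.005. These r values describe genes within the same sums, and genes are not independent replicates. The plot of both drug effects shows this cloud without a slope.

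**Figure D1:**
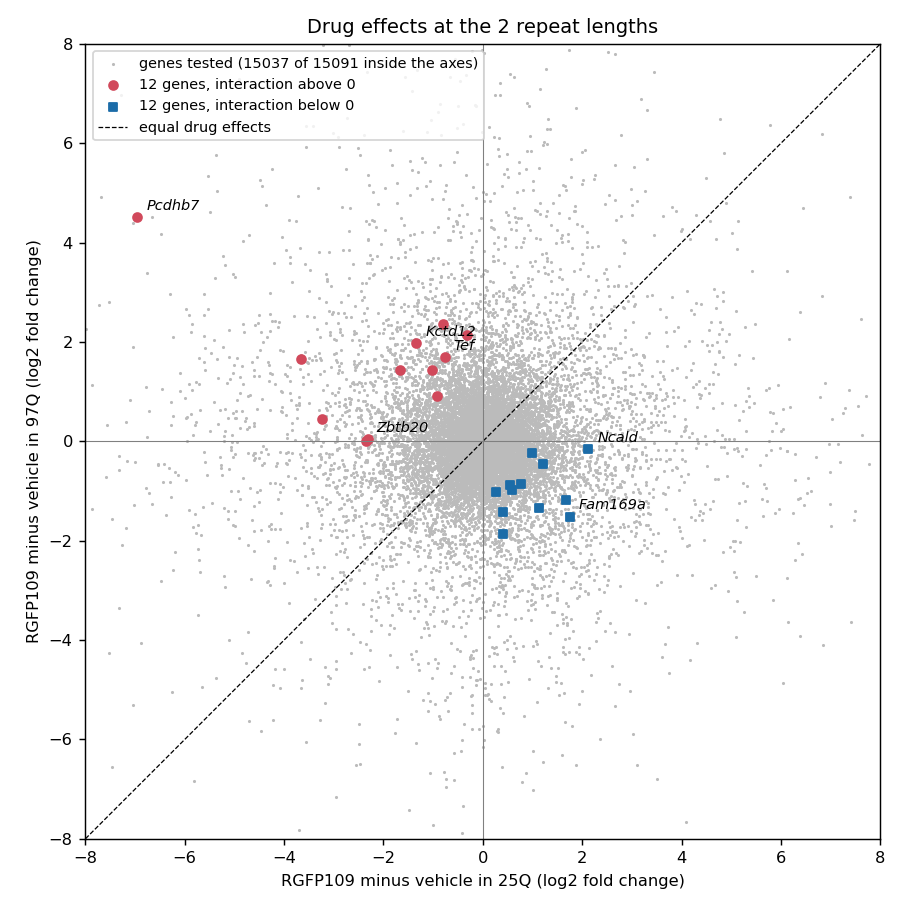
The x axis is the log2 fold change of RGFP109 over vehicle in 25Q neurons and the y axis the same in 97Q neurons, from the fit of 12 sums. Grey points are genes tested, 15037 of 15091 inside the axes, the dashed line marks equal effects, and the coloured points are 24 genes, 12 on each side, taken by the smallest p among those within limits on level, detection, share of 1 cell and batch direction, which lie away from the line because they were chosen by it.

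To show what the interaction rests on, 24 genes were taken, 12 on each side, by the smallest p among genes with 1 sign in all 3 batches, at least 20 CPM on average, a count in at least 50% of neurons and no neuron with more than 30% of the gene's signal. Their sizes and their shared direction over batches come from that choice and are a description. There were 849 genes above 0 and 1204 below 0 that met the limits. RGFP109 was above vehicle in 97Q and below it in 25Q in every batch for 6 of the 12 genes above 0, against 1.35% of all genes tested. The opposite pattern was seen for 7 of the 12 genes below 0, against 1.7% of all genes tested. Because the same contrast chose the genes, nothing is read from these counts. DESeq2 called 9 of the 24, all above 0 (Kctd12, Tef, Twsg1, Ago3, Pcdhb7, Arhgef3, Cpne6, Nr3c2 and Snph), with adjusted p from 1.63e-05 for Pcdhb7 to 0.0369 for Ago3.

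Promoter sequence is shown for Kctd12 and Tef, which had the smallest p of the 12 genes chosen above 0, and for the 2 cholesterol genes with the smallest p, Srebf2 and Hmgcs1, whose list is described further on. Each run is the 250 bases before the RefSeq start on GRCm38.p6, 5′ to 3′ in the direction of the gene: Kctd12 at chr14:102982638-102982887 (minus strand), Tef at chr15:81811164-81811413 (plus strand), 1 of 2 starts listed for it, Hmgcs1 at chr13:119690101-119690350 (plus strand) and Srebf2 at chr15:82147019-82147268 (plus strand). Capitals mark every match, on either strand, to the 5 motifs searched.
Kctd12: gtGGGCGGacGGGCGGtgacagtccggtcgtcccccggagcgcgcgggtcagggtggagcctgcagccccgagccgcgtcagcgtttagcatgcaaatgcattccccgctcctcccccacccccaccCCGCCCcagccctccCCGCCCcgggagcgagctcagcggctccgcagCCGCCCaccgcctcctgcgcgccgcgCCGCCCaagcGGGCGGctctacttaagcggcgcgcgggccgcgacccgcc
Tef: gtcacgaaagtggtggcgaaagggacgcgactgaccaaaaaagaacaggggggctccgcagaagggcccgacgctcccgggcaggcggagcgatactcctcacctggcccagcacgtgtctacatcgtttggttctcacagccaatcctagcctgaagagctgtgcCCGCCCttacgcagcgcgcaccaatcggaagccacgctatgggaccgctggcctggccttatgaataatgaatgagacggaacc
Hmgcs1: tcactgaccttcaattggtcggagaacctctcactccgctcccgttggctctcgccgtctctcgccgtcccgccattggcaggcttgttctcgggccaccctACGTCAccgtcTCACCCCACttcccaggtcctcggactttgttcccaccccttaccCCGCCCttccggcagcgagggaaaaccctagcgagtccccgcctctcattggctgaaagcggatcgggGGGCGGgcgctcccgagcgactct
Srebf2: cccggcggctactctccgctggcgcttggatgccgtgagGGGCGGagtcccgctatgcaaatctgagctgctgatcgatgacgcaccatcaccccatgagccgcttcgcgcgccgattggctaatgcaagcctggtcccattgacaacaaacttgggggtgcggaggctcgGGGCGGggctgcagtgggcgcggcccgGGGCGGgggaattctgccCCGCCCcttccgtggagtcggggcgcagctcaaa

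The 5 motifs were chosen after the interaction values were known and were searched on both strands of 32851 RefSeq windows of 250 bases. The GC box GGGCGG was in 32.7% of all windows, and it occurred 7 times before Kctd12, 1 time before Tef, 2 times before Hmgcs1 and 4 times before Srebf2. Of the cholesterol genes with a window, 20 of 21 held it, and of the 24 genes chosen by p, 11 of the 18 with a window. Counts of these 2 sets are of genes with a match in any of their windows, and a gene can have more than 1. The percentages of all windows are of single windows, so the units differ. The sterol response element core TCACNCCAC was in 1.05% of windows and its stricter form TCACCCCAC in 0.496%, and both matched the same site before Hmgcs1. No other cholesterol gene with a window and none of the 18 held either form. The cAMP response element TGACGTCA was in 1.55% of windows and in 0 of both sets. Its shorter form TGACGT, which lies within it, was in 6.47% of windows, in 2 of 21 cholesterol genes, Hmgcs1 among them, and in 1 of 18. A match is a description of these letters, and no match says nothing of a factor.

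Kctd12 (ENSMUSG00000098557, GRCm38 chromosome 14, 102976581 to 102982637, minus strand), a partner of GABA-B receptors, had the smallest p among the 12 genes above 0. In batches 1, 2 and 3 it stood at 30.9, 196 and 66.3 CPM in 25Q vehicle and at 5.93, 87.6 and 43.5 CPM in 25Q RGFP109. In 97Q it stood at 3.30, 45.5 and 13.5 CPM with vehicle and at 20.6, 135 and 44.7 CPM with RGFP109. Within each batch the drug sum was thus lower in 25Q and higher in 97Q, while the groups as a whole overlapped because the batches differed in level. The interaction was 3.32 (SE 0.679, 95% interval 1.80 to 4.84, adjusted p = 0.998 by edgeR), with 4.53, 2.70 and 2.25 by batch. In single neurons the median was 47.9 CPM in 25Q vehicle, 3.92 in 25Q RGFP109, 0.168 in 97Q vehicle and 0.749 in 97Q RGFP109, and 27 of 29, 14 of 23, 14 of 26 and 14 of 26 neurons had a count. The share of neurons with a count was therefore the same in both 97Q groups.

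Tef (ENSMUSG00000022389, chromosome 15, 81802421 to 81826863, plus strand), a PAR bZIP transcription factor of the circadian output, had 146, 278 and 113 CPM in 25Q vehicle and 155, 149 and 48.5 CPM in 25Q RGFP109. It had 65.1, 38.3 and 16.0 CPM in 97Q vehicle and 215, 119 and 53 CPM in 97Q RGFP109. The 97Q vehicle sums were all below the 25Q vehicle sums, and the sums of the 2 drug groups overlapped. Its interaction was 2.47 (SE 0.559), made of 1.70 in 97Q and -0.77 in 25Q. The median neuron had 12.9 CPM in 97Q vehicle and 73.4 CPM in 97Q RGFP109.

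For Zbtb20, Twsg1 and Ago3 all 25Q drug sums lay below all 25Q vehicle sums, while the 97Q groups overlapped. Zbtb20 (ENSMUSG00000022708, chromosome 16, 42875881 to 43642602, plus strand), a zinc finger repressor of neural development, had 591, 765 and 320 CPM in 25Q vehicle and 138, 65.7 and 114 CPM in 25Q RGFP109. In 97Q it had 430, 240 and 148 CPM with vehicle and 250, 347 and 201 CPM with the drug. Its median was 583 CPM in the astrocytes and 60.1 to 333 CPM in the 4 neuron groups. The drug effect was 0.05 (SE 0.405) in 97Q and -2.32 (SE 0.427) in 25Q. Twsg1, an extracellular binder of bone morphogenetic proteins, had 0.01 and -2.35, and Ago3, an Argonaute protein of the microRNA machinery, 0.45 and -3.24. Ago3 stood at 48.2, 54.6 and 71.7 CPM in 25Q vehicle and at 3.46, 4.20 and 11.8 CPM in 25Q RGFP109. Its 97Q sums differed in both directions, from 51.7, 80.1 and 44.8 CPM with vehicle to 23.9, 207 and 64.3 CPM with the drug.

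Zfp292, a zinc finger protein, showed the other make-up, with 65.2, 15.0 and 36.1 CPM in 97Q vehicle and 167, 231 and 94.8 CPM in 97Q RGFP109. Its 97Q groups did not overlap, and its drug effect was 2.14 (SE 0.525) in 97Q and -0.33 (SE 0.493) in 25Q. Arhgef3, a guanine nucleotide exchange factor for small GTPases, had 2.36 and -0.80. Nr3c2, the mineralocorticoid receptor, had 1.45 and -1.66, Mbnl2, a splicing regulator, 0.92 and -0.92, and Snph, the mitochondrial anchor syntaphilin, 1.43 and -1.03. The interaction of Snph, 2.46 in the sums, was -0.11 with means and -1.90 with medians over neurons. Cpne6, a calcium-binding copine of neurons, had 1.66 and -3.66. The largest interaction among the 12, 11.48 (SE 3.16), belonged to Pcdhb7, a clustered protocadherin that single neurons express selectively. It stood at 0.0927, 0 and 3.99 CPM in 25Q RGFP109 and had a count in 52 of 104 neurons, so its fold is set largely by sums near 0. Over the 12 genes, all sums of 97Q RGFP109 lay above those of 97Q vehicle for 3 (3.21% of all genes tested) and all sums of 25Q RGFP109 below those of 25Q vehicle for 5 (3.55%). Both held at once for 0 of the 12 (0.146% of all genes tested).

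Among the 12 genes below 0, Fam169a and Chic1 had all drug sums below all vehicle sums in 97Q and above them in 25Q. Of the 15091 genes, 13 had this pattern (0.0861%) and 22 the mirrored one (0.146%). Fam169a (ENSMUSG00000041817, chromosome 13, 97067286 to 97131013, plus strand) had 39.3, 9.85 and 31.1 CPM in 25Q vehicle and 88.4, 133 and 42.4 CPM in 25Q RGFP109. In 97Q it had 100, 96.7 and 52 CPM with vehicle and 41.4, 17.5 and 28.7 CPM with the drug. The interaction was -3.26 (SE 0.931), with -2.41, -6.03 and -1.27 by batch. Chic1 (ENSMUSG00000031327, chromosome X, 103356476 to 103396092, plus strand) had 57.1, 19.0 and 40.5 CPM in 25Q vehicle and 80.4, 69.5 and 98.5 CPM in 25Q RGFP109. It had 75.9, 124 and 60.4 CPM in 97Q vehicle and 34.5, 20.4 and 59.3 CPM in 97Q RGFP109, and its interaction was -2.47 (SE 0.801). In batch 3 the 97Q sums of Chic1 differed by little.

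The smallest p of these 12 genes belonged to Sccpdh, a saccharopine dehydrogenase-like protein, with an interaction of -1.67 (SE 0.456, adjusted p = 0.998 by edgeR). Its sums were 105, 48.8 and 198 CPM in 25Q vehicle, 240, 193 and 271 CPM in 25Q RGFP109, 226, 129 and 262 CPM in 97Q vehicle and 153, 77.1 and 254 CPM in 97Q RGFP109. Pfkp, the platelet isoform of the glycolytic enzyme phosphofructokinase, was detected in 104 of 104 neurons and had an interaction of -1.24 (SE 0.366). It stood at 215, 183 and 355 CPM in 25Q vehicle and 287, 583 and 690 CPM in 25Q RGFP109, and at 238, 330 and 464 CPM and 183, 313 and 379 CPM in the corresponding 97Q sums. H3f3b, which encodes the replacement histone H3.3, had an interaction of -1.29 (SE 0.400), with all 97Q RGFP109 sums (312, 211 and 551 CPM) below all 97Q vehicle sums (661, 634 and 691 CPM). The histone chaperone Nap1l4 had -1.56, the palmitoyltransferase Zdhhc2 -1.83, the exocyst subunit Exoc2 -1.63 and the small GTPase Rnd3 -2.28. Pfkp, Nap1l4 and Rnd3 had astrocyte medians of 614.6, 246.5 and 359.8 CPM, above every median of the 4 neuron groups.

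Ncald and Nnat lay below 0 with unlike patterns of level. Ncald, the neuronal calcium sensor neurocalcin delta, had 70.3, 441 and 772 CPM in 25Q vehicle, 447, 2137 and 1526 CPM in 25Q RGFP109, 30.2, 150 and 532 CPM in 97Q vehicle and 45.6, 68.1 and 453 CPM in 97Q RGFP109. Its drug effect was 2.13 (SE 0.545) in 25Q and -0.16 (SE 0.524) in 97Q. Nnat, the imprinted membrane protein neuronatin, had 146, 59.3 and 43.6 CPM in 97Q vehicle and 74.5, 20.2 and 44.6 CPM in 97Q RGFP109, all the latter below the 25Q RGFP109 sums of 743, 223 and 304 CPM. Batch 3 added almost nothing to the interaction of Nnat (-0.10) or of Nrep (-0.09), a neuronal regeneration protein whose interaction over all sums was -2.87 (SE 0.852). Of the 12 genes, all 97Q RGFP109 sums lay below all 97Q vehicle sums for 5 (2.92% of all genes tested), and all 25Q RGFP109 sums above 25Q vehicle for 2 (3.23%).

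**Figure D2:**
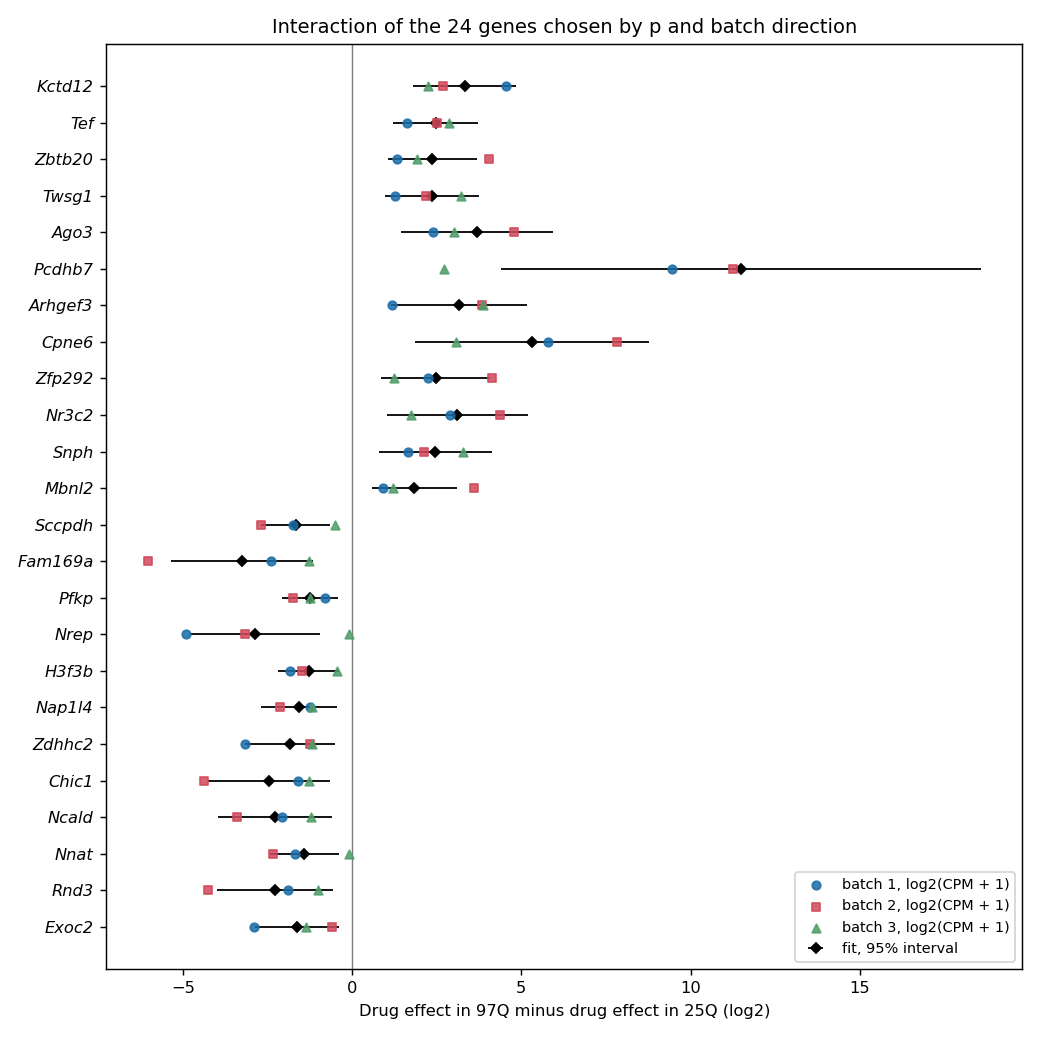
The x axis is the drug effect in 97Q minus that in 25Q on a log2 scale, and each line is 1 of the 24 genes. Black diamonds are the fit with its 95% interval, and coloured points are the 3 batches on the log2(CPM + 1) scale, which lie on 1 side of 0 for every gene because the choice required it.

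**Figure D3:**
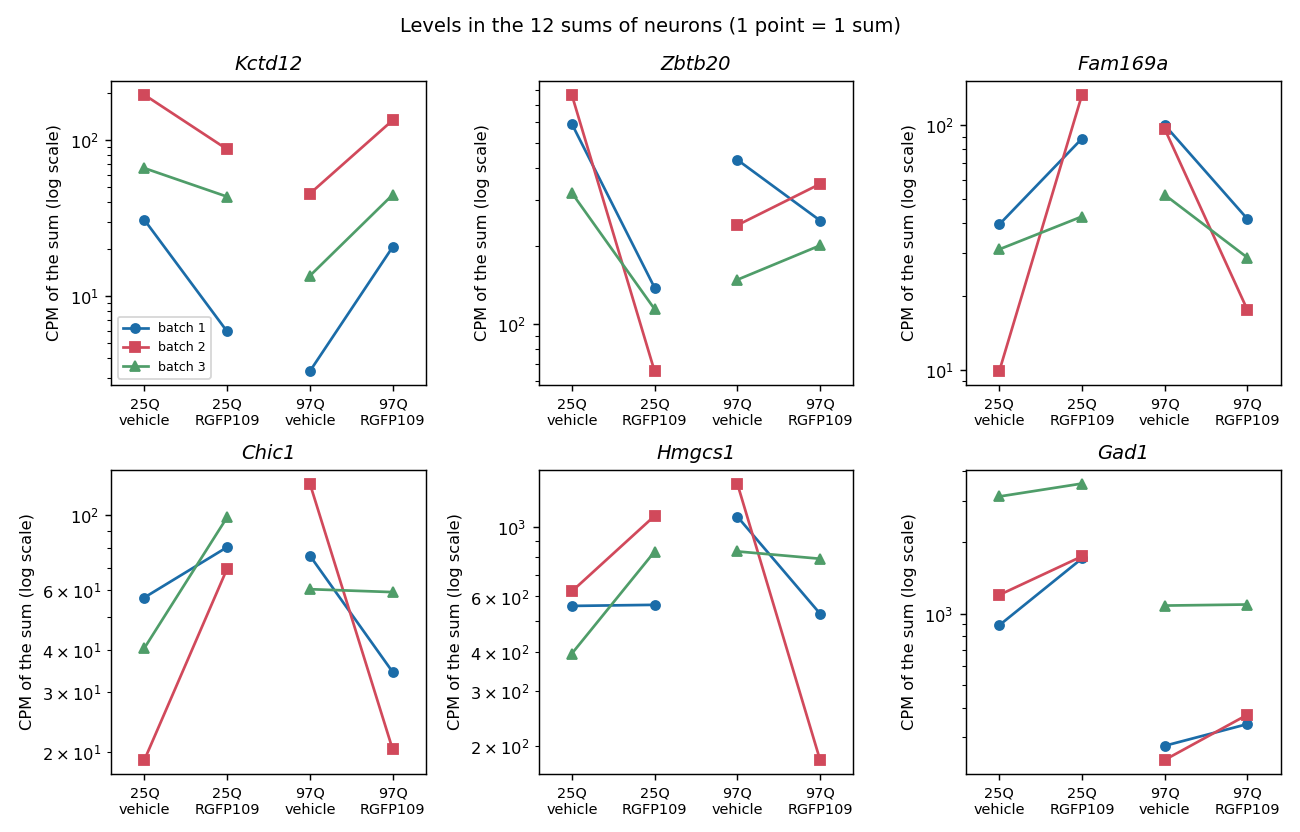
Each point is the CPM of 1 sum on a log axis, in 25Q vehicle, 25Q RGFP109, 97Q vehicle and 97Q RGFP109, and lines join vehicle and drug within a batch. The lines of Kctd12 slope down in 25Q and up in 97Q, those of Fam169a and Chic1 the other way, and those of Gad1 up at both lengths.

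The enzymes that make GABA showed no interaction beyond the error of the fit. Their SEs lay below the median of 1.46 over all genes, but measure only the spread between batch sums. Both estimates moved when neurons were averaged in place of summed, and that of Gad1 when 1 neuron was left out, as given below. Gad1 (ENSMUSG00000070880, chromosome 2, 70553072 to 70602014, plus strand) stood at 892, 1198 and 3128 CPM in 25Q vehicle and at 1710, 1746 and 3548 CPM in 25Q RGFP109. It stood at 276, 240 and 1080 CPM in 97Q vehicle and at 341, 373 and 1092 CPM in 97Q RGFP109, with every 97Q drug sum below every 25Q drug sum. The drug effect was 0.30 (SE 0.238) in 97Q and 0.57 (SE 0.238) in 25Q, and the interaction -0.28 (SE 0.336) with a 95% interval of -1.03 to 0.48. Gad2 (ENSMUSG00000026787, chromosome 2, 22622205 to 22693874, plus strand) had an interaction of 0.12 (SE 0.331, interval -0.62 to 0.87). Its sums were 473, 414 and 583 CPM in 97Q vehicle and 565, 360 and 707 CPM in 97Q RGFP109, against 992 to 1544 CPM in 25Q vehicle and 1154 to 1393 CPM in 25Q RGFP109.

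The value of Gad1 leaned on 1 neuron of the thin batch 2. Neuron 10 of 97Q RGFP109 had 1312 CPM and held 92.4% of the Gad1 counts of its sum. The other 3 cells of that sum had 17.6 to 33.4 CPM. They included cell 9, which stood apart from its label, and cell 11, with 8415 CPM of the astrocyte marker list. Without neuron 10 the interaction of Gad1 was -0.92 in place of -0.28. Without neuron 17 of the same group, which had the highest Gad1 level (3644 CPM, batch 3), it was -0.35. Both alternatives were added after the data had been seen. Over all 17 alternatives the adjusted p of the Gad1 interaction ran from 0.879 to 1. The median neuron had 650 CPM in 97Q vehicle and 495 CPM in 97Q RGFP109, against 1415 and 2055 CPM in 25Q, and the interaction of the median of log2(CPM + 1) over neurons was -2.23.

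Of the 13 tested genes of GABA synthesis, packaging and uptake, 10 were above 0 and 0 passed, with a median of 0.44 (0.06, 0.09 and 0.63 by batch) against -0.04 over all genes. Abat, the transaminase that breaks GABA down, had 0.72 (SE 0.340, interval -0.05 to 1.48), from 0.44 in 97Q and -0.27 in 25Q. Its sums were 295, 217 and 406 CPM in 25Q vehicle, 284, 136 and 385 CPM in 25Q RGFP109, 176, 97.8 and 306 CPM in 97Q vehicle and 266, 155 and 323 CPM in 97Q RGFP109. The vesicular transporter Slc32a1 had 0.42 (SE 1.38). The glutamine transporter Slc38a3 had the smallest p of the list, with 5.29 (SE 1.70) at 1.42 to 25.0 CPM outside the 97Q RGFP109 sums of 18.2, 204 and 37.6 CPM. It was an astrocyte transcript in these data, with a median of 520 CPM in the astrocytes and of 0 to 0.355 CPM in the 4 neuron groups, and its interaction was 1.34 without the 7 neurons rich in astrocyte markers. The median of the list changed sign when neurons were averaged in place of summed.

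Of 28 tested genes of GABA receptors and the inhibitory postsynapse, 16 were above 0 and 0 passed, with a median of 0.17. Gabra5, the alpha 5 subunit of GABA-A receptors, had -2.89 (SE 1.41), with 47.4, 1.68 and 61.8 CPM in 97Q RGFP109 below the 139, 191 and 64 CPM of 97Q vehicle. The delta subunit Gabrd had 5.25 (SE 2.68) and the alpha 2 subunit Gabra2 0.81 (SE 0.504). Without batch 2 the median of the list was -0.18.

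Genes that mark striatal projection neurons had the list median farthest above 0 among those with at least 13 tested genes, but not in every batch. Of 33 tested members 28 were above 0 and 0 passed, with a median of 2.02, made of 0.70 in 97Q and -1.03 in 25Q. By batch the median was 1.29, 3.50 and -0.34, so batch 3, which held the most neurons, lay on the other side. Without batch 2 the fitted median was 0.47, and over 17 alternatives it ran from 0.47 to 3.25. The summed level of the list in the median neuron was 5740, 10957 and 1846 CPM in batches 1, 2 and 3 of 25Q vehicle and 2250, 2261 and 2129 CPM in 25Q RGFP109. It was 1899, 3846 and 1575 CPM in 97Q vehicle and 3810, 3016 and 1695 CPM in 97Q RGFP109. The median neuron was thus richest in these markers in batches 1 and 2 of 25Q vehicle, and the part of this makeup in the list's values was not tested. Single neurons of batch 1 of 25Q vehicle ran from 822 to 11935 CPM for the list.

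Pde1b, a calcium-dependent phosphodiesterase, had the smallest p of the projection neuron list, with 2.80 (SE 0.895). Its sums were 93.2, 141 and 83.5 CPM in 25Q vehicle, 115, 15.1 and 61.8 CPM in 25Q RGFP109, 17.5, 12.6 and 13.4 CPM in 97Q vehicle and 79.4, 50.8 and 34.1 CPM in 97Q RGFP109. All 97Q drug sums lay above all 97Q vehicle sums. Bcl11b, a transcription factor of projection neuron development, had 1.97 (SE 0.789), the calcium-activated channel family member Ano3 5.09 (SE 2.13), and Gng7, a gamma subunit that couples striatal dopamine receptors to cAMP, 2.47 (SE 1.09). The dopamine receptors Drd1 and Drd2 had 3.16 (SE 3.25) and 8.14 (SE 3.79), and counts in 49 and 37 of 104 neurons. The phosphatase Ptpn5 had 1.39 (SE 0.698), the signal integrator Ppp1r1b 2.02 (SE 2.10) and the phosphodiesterase Pde10a -0.55 (SE 1.80). Penk, the enkephalin precursor, had 5.58 (SE 4.70) with 40.1% of its signal in 1 neuron. Without batch 2 the interaction was -2.51 for Drd1 and -0.95 for Penk. The interneuron marker Calb2 had -5.74 (SE 1.92), with 152, 178 and 587 CPM in 25Q RGFP109 and 0.0341 to 35.1 CPM elsewhere. Its list shared no direction, with 3 of 7 tested members above 0 and 4 below. The median of the interneuron list was -3.57 (-3.05, -1.49 and 2.38 by batch), and 1.55 without batch 2.

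Genes of cholesterol synthesis lay mostly below 0, in all 3 batches. Of 28 tested members 22 were below 0 and 0 passed. The median was -1.04 (-0.27, -1.95 and -0.76 by batch), made of -0.51 in 97Q and 0.54 in 25Q. By batch the median drug effect was -0.62, -1.34 and 0.12 in 97Q and -0.26, 0.65 and 0.62 in 25Q. Only in batch 2 was it below 0 in 97Q and above 0 in 25Q. For 13 members the interaction was below 0 in every batch, against 13.9% of all genes tested. Over 17 alternatives the median ran from -1.67 to -0.48, the latter without batch 2. Srebf2, the transcription factor that drives the pathway, stood at 64.2, 74.1 and 54 CPM in 25Q vehicle and 120, 87.5 and 156 CPM in 25Q RGFP109, all drug sums above all vehicle sums. In 97Q it stood at 186, 151 and 154 CPM with vehicle and 61.2, 25.3 and 163 CPM with RGFP109, and these overlapped. Its interaction was -2.01 (SE 0.742, interval -3.67 to -0.34).

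Hmgcs1, the synthase at the entry to the pathway, had 560, 623 and 395 CPM in 25Q vehicle, 564, 1083 and 834 CPM in 25Q RGFP109, 1078, 1373 and 835 CPM in 97Q vehicle and 529, 181 and 791 CPM in 97Q RGFP109. All 97Q drug sums were below all 97Q vehicle sums, by little in batch 3, and the interaction was -1.76 (SE 0.707). Dhcr7, which makes cholesterol from its last precursor, had -1.05 (SE 0.453), with -0.21 in batch 2. The squalene epoxidase Sqle had -1.64 (SE 0.815), the demethylase Cyp51 -1.76 (SE 0.898) and the oxidase Msmo1 -1.21 (SE 0.739). The sterol sensor partner Insig1 had -1.24 (SE 1.76), and 0.95 without batch 2. The astrocyte median lay above those of the 4 neuron groups for Hmgcs1 (1634 CPM against 291 to 1021 CPM), Srebf2, Sqle, Cyp51 and Msmo1. It lay within them for Dhcr7 (67.8 CPM against 53.1 to 82.1 CPM) and Insig1 (14.7 CPM against 1.07 to 15.4 CPM). The astrocyte marker list had 10 of 22 genes above 0 and a median interaction of -0.06 (-0.14, -2.49 and 0.23 by batch). Without the 7 neurons rich in astrocyte markers the cholesterol median was -1.17.

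Other protein and RNA housekeeping lists lay below 0 by small amounts. Proteasome genes had 39 of 48 below 0 and a median of -0.28 (-0.38, -0.57 and -0.26 by batch), with 18 members below 0 in every batch, against 13.9% of all genes tested. The core subunit Psma6 had -0.90 (SE 0.389) and the lid subunit Psmd7 -0.93 (SE 0.484). The inducible subunit Psmb9 had -6.43 (SE 3.26) at 0 to 16.6 CPM. Chaperones had 32 of 47 below 0 (median -0.22, and -0.0967 without the neurons rich in astrocyte markers), with the chaperonin subunit Cct8 at -0.87 (SE 0.438). Ribosomal proteins had 50 of 76 below 0 (median -0.23) and nuclear-encoded respiratory chain genes 53 of 80 (median -0.20), with the succinate dehydrogenase subunit Sdhd at -0.54 (SE 0.269). In none of these lists did a member pass the test. All 9 mitochondrially encoded genes were above 0, with a median of 0.40, but -0.49 in batch 3, and mt-Rnr2 and mt-Nd2 had 0.83 (SE 0.470) and 0.56 (SE 0.377).

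Tubulins, stathmins and tau had 30 of 42 below 0 and a median of -0.65 (-0.48, -1.21 and 0.01 by batch). Stmn2, a regulator of growing axons, had -1.13 (SE 0.396), the growth cone protein Gap43 -1.16 (SE 0.465) and the tubulin Tubb3 -2.23 (SE 1.19). These transcripts are also on the pan-neuronal marker list, which had 12 of 18 below 0. Its median was -0.25 (-0.50, -1.14 and 0.25 by batch), and the part of neuronal content in these values was not tested. Replacement histones had 15 of 16 below 0 and a median of -0.97, which was -2.08 in batch 2 against 0.08 and -0.14 in batches 1 and 3. Proliferation genes had 13 of 15 below 0 and a median of -1.73. Rrm2, a subunit of ribonucleotide reductase, had -11.75 (SE 2.76) with a count in 24 of 104 neurons, 18.4, 13.8 and 4.77 CPM in 97Q vehicle and 0.205, 0 and 0.0646 CPM in 97Q RGFP109. Like Fam169a and Chic1 it was 1 of the 13 genes with all drug sums below vehicle in 97Q and above it in 25Q. DESeq2 called it (adjusted p = 7.57e-06).

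The histone deacetylase list, which is wider than the drug's targets HDAC1 and HDAC3 and holds sirtuins, showed no shared direction. Of 18 tested histone deacetylases 9 were above and 9 below 0, with a median of -0.14. Hdac1 had -1.80 (SE 1.23, interval -4.55 to 0.95), at 2.37 to 35.6 CPM over the 12 sums. Hdac2 had -0.35 (SE 0.764) and Hdac3 0.21 (SE 0.403, interval -0.69 to 1.12). The sirtuins Sirt1 and Sirt2 had 5.57 (SE 2.88) and -1.07 (SE 0.517). Sirt1 was near 0, with medians of 0 to 0.208 CPM in the 4 neuron groups. Sirt2 had a median of 436 CPM in the astrocytes against 81.9 to 144 CPM in the 4 neuron groups. Corepressor complexes of HDAC1 and HDAC3 had 16 of 39 above 0, with Sap18 at -0.92 (SE 0.493), and acetyltransferases 14 of 25, with the coactivator Ncoa1 at 2.08 (SE 0.805). Genes listed as responding to deacetylase inhibitors had 10 of 21 above 0 and a median of -0.11, with Tuba1a at -0.91 (SE 0.327) and Timp3, an inhibitor of metalloproteinases, at 2.36 (SE 0.857). Timp3 had a median of 2505 CPM in the astrocytes and of 6.83 to 45.9 CPM in the 4 neuron groups, and its interaction was 0.60 without the 7 neurons rich in astrocyte markers. Tuba1a too had a higher median in the astrocytes (2743 CPM) than in the 4 neuron groups (898 to 1638 CPM). The mouse Htt gene had 0.25 (SE 0.865). It does not check the constructs, which carry human sequence.

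Glutamate receptors and postsynaptic genes had 26 of 39 above 0 and a median of 0.44 (0.26, 0.44 and 0.34 by batch). Dlg2, a scaffold of the postsynaptic density, had 1.31 (SE 0.547), the AMPA receptor subunit Gria2 0.61 (SE 0.454) and the scaffold Homer1 1.38 (SE 0.692), which was -0.48 with medians over neurons. Dlg2 stood at 75.8, 98.6 and 131 CPM in 97Q vehicle and at 137, 183 and 156 CPM in 97Q RGFP109, without overlap. Immediate early genes had 11 of 20 above 0. Arc had -5.40 (SE 1.93) with a count in 31 of 104 neurons, was called by DESeq2 (adjusted p = 0.0156) and had -3.42 without the neurons rich in astrocyte markers, and Jund had -2.62 (SE 1.17). Other single genes with a small unadjusted p were the lactate dehydrogenase Ldha at -1.26 (SE 0.472), Gapdh at -1.39 (SE 0.570), the outer mitochondrial channel Vdac1 at -1.10 (SE 0.418), the mitochondrial RNA polymerase Polrmt at 5.14 (SE 2.18) and Gclc, which makes the glutathione precursor, at 1.90 (SE 0.774), which DESeq2 called (adjusted p = 0.0118).

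**Figure D4:**
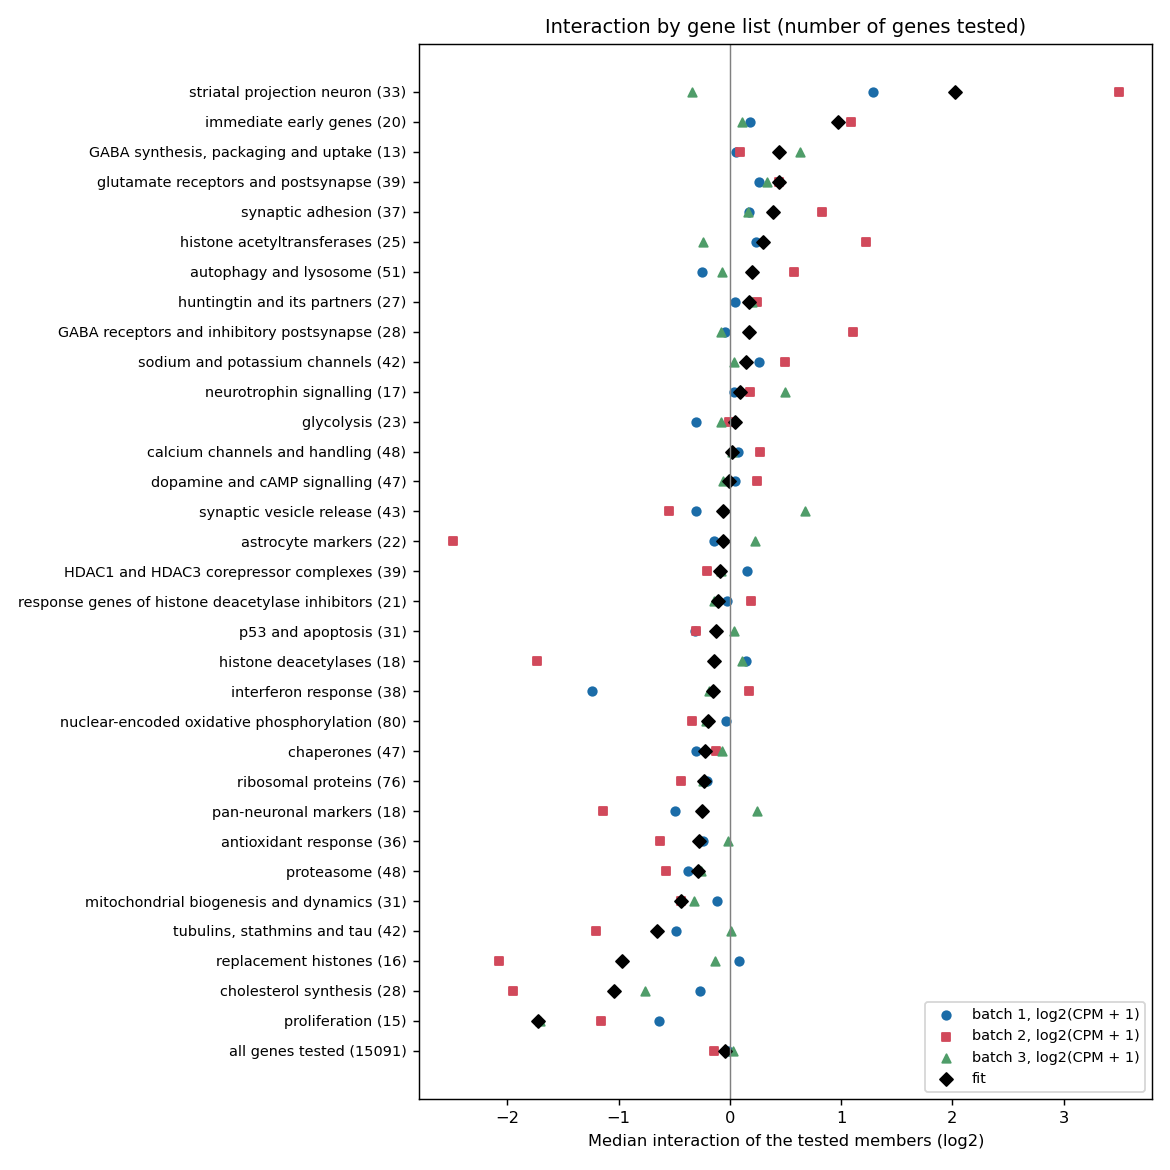
Each line is 1 of the 32 gene lists with at least 13 tested genes, ordered by the median interaction of its members on a log2 scale, with all genes tested at the bottom. Black diamonds are medians of the fit and coloured points medians by batch, and batch 2 is the outermost point for the projection neuron, cholesterol and replacement histone lists.

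Slc1a2, a glutamate transporter fixed here as an astrocyte marker, did not mark the astrocytes of these data, where its median was 0.362 CPM against 14.1 CPM over the neurons. It had 72.8, 170 and 96.3 CPM in 25Q RGFP109 against 2.53 to 51.5 CPM in the other 9 sums, and an interaction of -2.70 (SE 1.19). The microglial protease Ctss had 15.20 (SE 5.05), with 5399 CPM in the batch 2 sum of 97Q RGFP109, and DESeq2 called it (adjusted p = 0.00645). Cell 9 of that group held 94.0% of its signal. The highest level of the other members of the microglia list in any of the 104 cells ran from 0 CPM (Tmem119) to 608 CPM (Tyrobp). Without cell 9 the interaction of Ctss was 5.87, and the microglia list had a median of -0.79 in place of 1.74. The immediate early genes had a median of 0.97 with that cell and 0.29 without it, and the proteasome subunit Psma6 -0.90 and -1.40. The fit without the 7 neurons rich in astrocyte markers called 0 genes and left 384 at an unadjusted p of 0.05.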

How the data were processed

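Each of the 127 deposited samples is 1 cell. The authors deposited raw counts of reads per Ensembl gene, and per the submitters' processing notes FastQC, Trimmomatic 0.36, STAR 2.5 and HTSeq 0.9.1 were used, with builds GRCm38 and mm10. The sources used here give neither annotation release nor strand setting, so reads of the 11 of 24 genes chosen by p that share exon bases with another gene cannot be assigned with certainty. These were Kctd12, Tef, Zbtb20, Arhgef3, Nr3c2, Mbnl2, Fam169a, Pfkp, Zdhhc2, Ncald and Nnat. Of 53465 gene identifiers, 53360 matched GENCODE M21. No 2 cells had identical counts. Reads carry no molecular identifiers and can repeat 1 molecule.

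Counts were summed over the neurons of a group within a batch (12 sums, n = 3 per group). Genes passed edgeR's filterByExpr and had a count in at least 20% of the neurons. The model was edgeR 4.0.16 with TMM factors (glmQLFit and glmQLFTest, robust, terms for group and batch, 6 residual degrees of freedom). Tests were two-sided, with Benjamini-Hochberg adjustment over all 15091 genes and a threshold of 0.05. CPM use TMM-scaled library sizes, and values by batch are differences of log2(CPM + 1). SEs are the log2 difference over the square root of F. The script was tested on simulated data. DESeq2 1.42.0 and limma 3.58.1 served as alternatives.

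The labels name the batch, which pairs the sums. Deviations from group means correlated at 0.155 to 0.229 for batch 1, at 0.062 to 0.133 for batch 2 and at 0.252 to 0.325 for batch 3, against -0.254 to 0.095 for sums that share neither. Besides the 24 genes chosen by p, the text names fixed genes (Gad1, Gad2, Slc32a1, Abat, Hdac1, Hdac2, Hdac3, Htt, Ppp1r1b, Penk, Pde10a) and, in each list, up to 3 members with the smallest p, or members with a known role, which were picked with their values seen. Some genes that this rule names are not reported here. The comparison, the gene lists and the fixed genes were chosen with earlier results of these data known. No set test was run. Promoter windows came from RefSeq (GRCm38.p6), and motifs were chosen after the results were seen. The empty vector neurons were not used, and the astrocytes served for reference levels only.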

Additional observations from a re-analysis of the deposited data

How the results depend on the processing

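The count of 0 genes held under 16 of 17 alternatives: other size factors, limma-voom, no replicate block, no filter, a stricter filter, thinned cells, means or medians over neurons, no robust estimation, without neurons rich in astrocyte markers, and, added after seeing the data, without each of 3 single 97Q RGFP109 cells (9, 10 and 17). Without replicate 1, 2 or 3 (a batch each) it was 0 to 0. DESeq2 called 70 genes, 56 above and 14 below 0; 47 had a count in fewer than 50% of neurons, and 17 met the limits for the genes chosen by p. Kctd12, Tef, Twsg1, Ago3, Pcdhb7, Arhgef3, Cpne6, Nr3c2 and Snph were called by DESeq2 and, among list members, Rrm2, Arc, Gclc and Ctss; the cause was not tested. Without the replicate block edgeR called 0 genes and 285 had an unadjusted p below 0.05, against 393 with it. Over 83 named genes and 17 alternatives, 25 of 1401 values changed sign, in 12 genes, and the cause was not tested. With means of log2(CPM + 1) over neurons, Snph stood at -0.11, Gad2 at -0.69, Slc32a1 at -0.0382, Abat at -0.0443, Htt at -0.31 and Drd1 at -0.52. With medians over neurons, Snph stood at -1.90, Gad2 at -0.51, Slc32a1 at -0.36, Htt at -0.86, Drd1 at -0.99, Homer1 at -0.48 and Timp3 at -0.75. Without replicate 2, Hdac2 stood at 0.38, Hdac3 at -0.32, Htt at -0.42, Penk at -0.95, Drd1 at -2.51 and Insig1 at 0.95. Without replicate 3, Slc32a1 stood at -0.0821. Leaving out the other replicates, the far ends were 0.60 for Slc32a1, -0.87 for Hdac2, 0.63 for Hdac3, 1.01 for Htt, 12.52 for Penk, 4.85 for Drd1 and -3.31 for Insig1. With limma-voom, Hdac3 stood at -0.0148, Htt at -0.0670 and Drd1 at -2.88. With thinned cells Gad2 stood at -0.15, and without neuron 10 of 97Q RGFP109 Htt at -0.17. A pseudocount of 5 moved 0 of 35 means over batches by more than their SD, and 104 of 663 list medians moved by more than the SD of the batch medians. What limits the precision was not tested.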
